A study of Mus musculus with 20 samples.

Results

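A set of 9 genes of the hepatic lipid droplet, chosen by name with earlier results of these data known, is described here. The genes are the lipases Pnpla2 and Pnpla3, the lipase cofactors Abhd5 and G0s2, the perilipins Plin2, Plin3, Plin4 and Plin5, and the droplet fusion gene Cidec. They are 9 of the 26830 genes with at least 1 count in any of 20 libraries. The libraries hold polyadenylated RNA from the right liver lobe of male CD-1 IGS mouse fetuses, an outbred stock, at embryonic day 18.5. Dams of the control group and of the group with maternal nutrient restriction (MNR) each gave 5 litters, named A to E, with 2 male fetuses per litter. The degree and the dates of the restriction, and the age of the dams, are not stated in the labels. Equal letters in the 2 groups do not mark a shared dam.

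A lipid droplet is a store of triglyceride and sterol ester under a single layer of phospholipid and a coat of proteins. Perilipins are coat proteins that shield the core or recruit enzymes to it. Adipose triglyceride lipase, the product of Pnpla2, removes the first fatty acid from a triglyceride, and it is switched on by the Abhd5 protein and held back by the G0s2 protein. Fatty acids released from hepatocyte droplets can be oxidised, exported in lipoproteins or used as ligands of nuclear receptors such as PPAR alpha. Fetal liver close to birth stores lipid and still makes blood cells.

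Deposited counts per fetus totalled 14925778 to 28016953, with a median of 19658940. Littermates share a dam, so their counts were added, and 5 litters per group were compared with edgeR's quasi-likelihood test. Levels are given as CPM, a count scaled to a common library size with TMM, and group levels as mean ± SD over 5 litters. A change is the log2 fold change from control to MNR, with a standard error (SE). The SE was derived from edgeR's test, as the absolute change divided by the square root of its F statistic. Adjusted p-values follow Benjamini and Hochberg over the 17573 genes that passed the filter on low counts, and a gene is said to have risen or fallen where that value was under 0.05. The labelled tissue was checked against its markers. The 9 hepatocyte markers, Alb and Apoa1 among them, summed to 104700 to 150300 CPM in the 20 fetuses. The 8 adipocyte markers summed to 1.30 to 26.6 CPM in control fetuses and 2.11 to 12.7 CPM in MNR fetuses. Nearly all of this was Car3, at 1.18 to 26.5 CPM, while Lep and Ucp1 were at 0 in every fetus and Plin1, the perilipin of fat cells, reached 0.0535 CPM at most. In whole tissue, fewer cells of a type and less RNA per cell cannot be told apart.

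Of the 9 genes, 8 passed the filter and 1 of these, Pnpla3, fell in MNR livers. Over all tested genes 0.666% passed in either direction and 0.25% passed as lower. The other 7 did not pass, although Pnpla2 and Plin5 (higher) and Abhd5 and Plin2 (lower) had an unadjusted p under 0.05. That level was reached by 5 of the 8 genes, and by 19.6% of all tested genes. Control and MNR litters were fully apart for Pnpla3 (MNR below, as for 2.23% of all tested genes) and Pnpla2 (MNR above, as for 2.28%), which makes 2 of 8 genes against 4.5% of all. The median change of the 8 tested genes was -0.12, against -0.00271 over all tested genes. The changes were positive for 3 genes and negative for 5. Since the 9 genes were chosen with earlier results of these data known, these shares do not test the set against all genes.

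**Figure D1:**
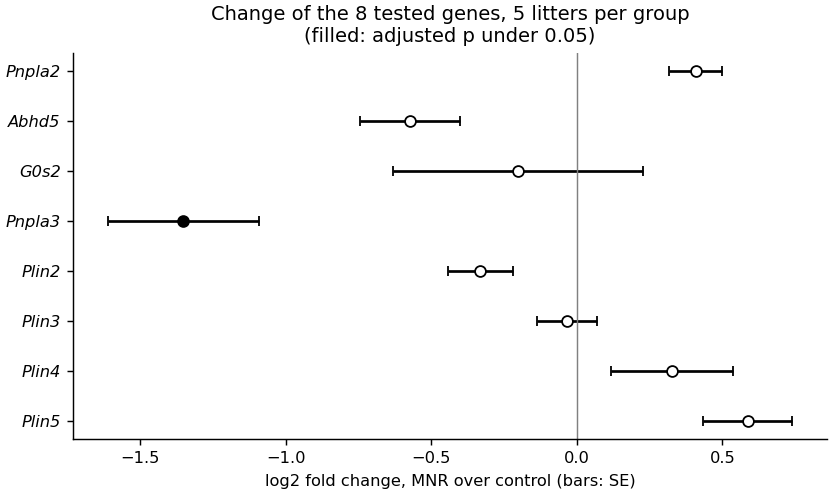
Log2 fold change of MNR over control for the 8 tested genes (x axis), from edgeR on 5 litters per group. Bars are 1 standard error, derived from the F statistic of the test, and the filled point has an adjusted p under 0.05. Pnpla3 lies farthest from 0, at -1.35, and the points of Plin3 and G0s2 have bars that cross 0.

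Pnpla3 encodes a droplet protein related to adipose triglyceride lipase, known as a gene that insulin and feeding induce in liver and for binding the Abhd5 protein. It lies on the plus strand of chromosome 15 at chr15:83998246-84019942 (mm9), with 1 annotated transcript of 4640 bases. Its promoter is shown because this gene fell. The window runs from 250 bases before to 50 bases after the RefSeq start site (chr15:84167566-84167865, plus strand, GRCm38.p6, a later build than that of the counts). No letters are in capitals, since none of the 5 motifs searched on both strands was found in it.
Pnpla3: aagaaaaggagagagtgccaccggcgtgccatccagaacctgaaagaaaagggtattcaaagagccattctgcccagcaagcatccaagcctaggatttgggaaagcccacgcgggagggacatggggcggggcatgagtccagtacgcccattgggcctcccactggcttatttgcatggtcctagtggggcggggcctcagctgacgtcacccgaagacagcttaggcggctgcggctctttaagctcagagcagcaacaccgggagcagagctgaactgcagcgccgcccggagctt
These motifs were the sterol regulatory element TCACNCCAC, the E-box CACGTG, the direct repeat AGGNCANAGGNCA of PPAR, the FOXO site GTAAACA and the glucocorticoid element, GNACA and TGTNC with any 3 bases between them. They occur in 1.24%, 7.15%, 0.381%, 3.65% and 0.475% of the 32851 RefSeq promoter windows of this length, in the same order. A missing match says only that these letters are not in the window.

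Control litters A to E had 40.5, 25.1, 59.6, 31.7 and 27.5 CPM of Pnpla3, and MNR litters A to E had 12.2, 10.7, 12.4, 23.0 and 13.9 CPM. Every MNR litter lay below every control litter, with MNR litter D closest to the controls. Single control fetuses spanned 17.5 to 69.7 CPM (median 32.9), and single MNR fetuses 10.5 to 27.0 CPM (median 12.6). Of 10 MNR fetuses 9 lay below the lowest control fetus, and the exception was fetus 1 of litter D. The group levels were 36.9 ± 14.0 CPM in control and 14.4 ± 4.94 CPM in MNR. With edgeR the change was -1.35 (SE 0.26), at an adjusted p = 0.044. These values rest on 394 to 2534 counts per litter.

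The call on Pnpla3 depended on which litters were in the fit, and its direction did not. It passed without control litter B (adjusted p = 0.0177) or MNR litter D (adjusted p = 0.0106). It did not pass without control litter A, C, D or E or without MNR litter A, B, C or E, where edgeR's adjusted p was 0.0608 to 0.11 and the change -1.11 to -1.44. Of all genes 4.75% passed with control litter B left out and 2.89% with MNR litter D left out, against 0.0113% without control litter D or MNR litter A, 0.17% without MNR litter C and 0 without the remaining litters. In each of those fits 2818 to 3314 genes had an unadjusted edgeR p under 0.05. The adjusted p was 0.0865 with the hepatocyte marker level as a covariate and 0.315 with only fetus 1 of each litter, fits in which 0 of all genes passed in edgeR and 3030 and 1699 had an unadjusted p under 0.05. Over all alternatives run it lay between 0.000363 and 0.315.

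Pnpla2 encodes adipose triglyceride lipase, which starts the breakdown of stored triglyceride. The gene spans chr7:148641097-148646642 (mm9, plus strand) with 8 annotated transcripts. Control litters A to E had 27.0, 33.1, 28.1, 24.3 and 30.4 CPM, and MNR litters A to E had 44.5, 34.7, 35.4, 35.6 and 39.3 CPM. All 5 MNR litters lay above all 5 control litters, by a narrow margin between MNR litter B and control litter B. Fetuses spanned 21.6 to 33.4 CPM (median 28.9) in control and 32.9 to 54.1 CPM (median 36.0) in MNR, and 8 of 10 MNR fetuses exceeded the highest control fetus. The group levels were 28.6 ± 3.34 and 37.9 ± 4.08 CPM. The change of 0.41 (SE 0.092) did not pass in edgeR, at p = 0.00084 and adjusted p = 0.0587.

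Abhd5 encodes the coactivator of adipose triglyceride lipase. It occupies chr9:122260726-122290642 (mm9, plus strand), with 4 annotated transcripts. Its control litters A to E stood at 66.5, 53.4, 75.7, 106.7 and 70.4 CPM, and its MNR litters at 40.7, 53.9, 52.7, 62.3 and 41.4 CPM. The groups overlapped only through control litter B, which lay just below MNR litter B and below MNR litter D. All 10 MNR fetuses were under the control median of 69.6 CPM, and 6 were under the lowest control fetus. Control fetuses spanned 50.3 to 128.0 CPM and MNR fetuses 39.4 to 69.3 CPM (median 49.9). The means were 74.6 ± 19.8 CPM in control and 50.2 ± 9.14 CPM in MNR, a change of -0.57 (SE 0.17) with edgeR's adjusted p = 0.109.

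G0s2 encodes the inhibitor of adipose triglyceride lipase. It has a single annotated transcript (chr1:195098355-195099382, mm9, minus strand). Control litters A to E had 26.2, 67.3, 75.6, 33.5 and 21.9 CPM, and MNR litters A to E had 39.9, 26.7, 23.8, 82.7 and 21.9 CPM. High litters were found in both groups (control B, control C and MNR D), and the groups overlapped almost fully. Littermates resembled each other in this gene. The SD within litters was 0.23 in control and 0.33 in MNR on the log2 scale, and the SD of litter means was 0.81 in both. With levels of 44.9 ± 24.7 and 39.0 ± 25.4 CPM, the change of -0.20 (SE 0.43) had an edgeR adjusted p of 0.834, and it ran from -0.68 without MNR litter D to 0.07 without control litter C, with the opposite sign.

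**Figure D2:**
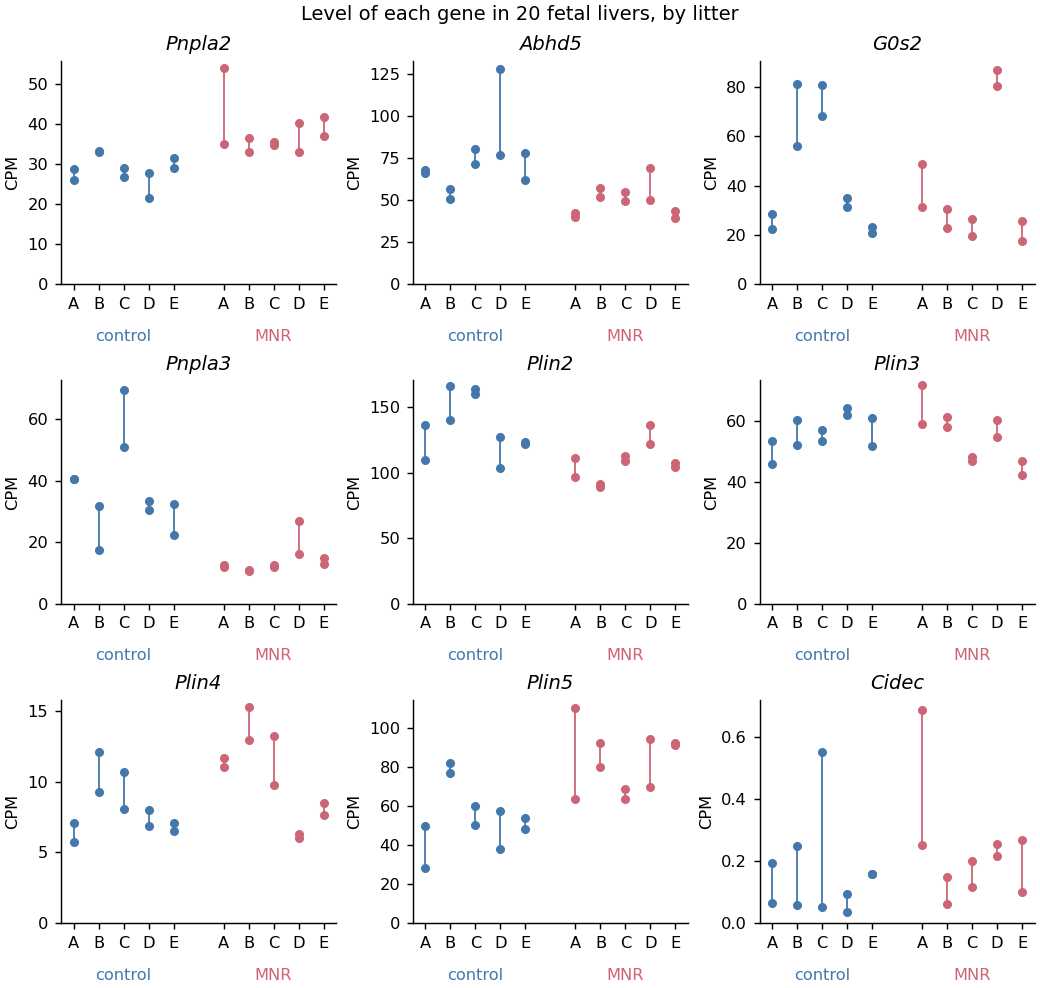
Level of each of the 9 genes in every fetus, in CPM (y axis, from 0), by litter (x axis); each point is a fetus, and a line joins the 2 fetuses of a litter. Pnpla3 is lowest in MNR litters A, B, C and E, all MNR fetuses lie above the control median for Pnpla2 and Plin5, and G0s2 is high in control litters B and C and in MNR litter D.

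Plin5 encodes the perilipin of tissues that oxidise fatty acids, a protein that binds Abhd5 and the lipase and tethers droplets to mitochondria. It lies at chr17:56251024-56257019 (mm9, minus strand). Control litters A to E stood at 41.8, 79.0, 54.8, 46.4 and 51.1 CPM, and MNR litters A to E at 87.0, 86.3, 66.7, 78.1 and 91.9 CPM. The groups overlapped through control litter B alone, which exceeded MNR litters C and D. All 10 MNR fetuses exceeded the control median of 51.8 CPM and 5 exceeded the highest control fetus, with ranges of 28.4 to 82.2 CPM in control and 63.5 to 110.3 CPM in MNR (median 85.9). Group means were 54.6 ± 14.5 and 82.0 ± 9.87 CPM. The change of 0.59 (SE 0.15) did not pass in edgeR (p = 0.00246, adjusted p = 0.08).

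Whether Plin5, Pnpla2 and Abhd5 were called depended on the litters, the fetus and the method used. They passed without control litter B, a fit in which 4.75% of all genes passed. The edgeR adjusted p was then 0.0084 for Plin5, 0.0218 for Pnpla2 and 0.0393 for Abhd5, with changes of 0.76, 0.46 and -0.67. Without MNR litter D, where 2.89% of all genes passed, the edgeR adjusted p of Pnpla2 was 0.0473. Over all alternatives the adjusted p lay between 0.0084 and 0.478 for Plin5, 0.00353 and 0.352 for Pnpla2, and 0.00847 and 0.433 for Abhd5. DESeq2 on the same litter sums called 4 of the 8 genes, with adjusted p = 0.000893 for Pnpla3, 0.00353 for Pnpla2, 0.00861 for Plin5 and 0.0228 for Abhd5, and called 6.62% of all genes. Limma-voom with litter as a random term also called 4 of the 8, and 6.74% of all genes, and so did edgeR on fetus 2 of each litter alone, with 3.08% of all genes. With the fetuses as separate libraries, which counts littermates as independent, 5 of the 8 genes passed, as did 14.3% of all genes. Control litter B had the lowest control level of Pnpla3 and Abhd5 and the highest of Pnpla2, Plin4 and Plin5. On unscaled library totals its fetus 1 also held 265 CPM of the pancreatic transcripts Cpa1, Ctrb1 and Cpb1, and MNR fetuses B 1 and E 1 held 89.4 and 59.4 CPM. Without these 3 fetuses, left out after the data were seen, Pnpla3 had a change of -1.37 (edgeR adjusted p = 0.0269), and Pnpla2, Plin5 and Abhd5 had adjusted p = 0.0522, 0.0638 and 0.0878, while 1.22% of all genes passed.

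**Figure D3:**
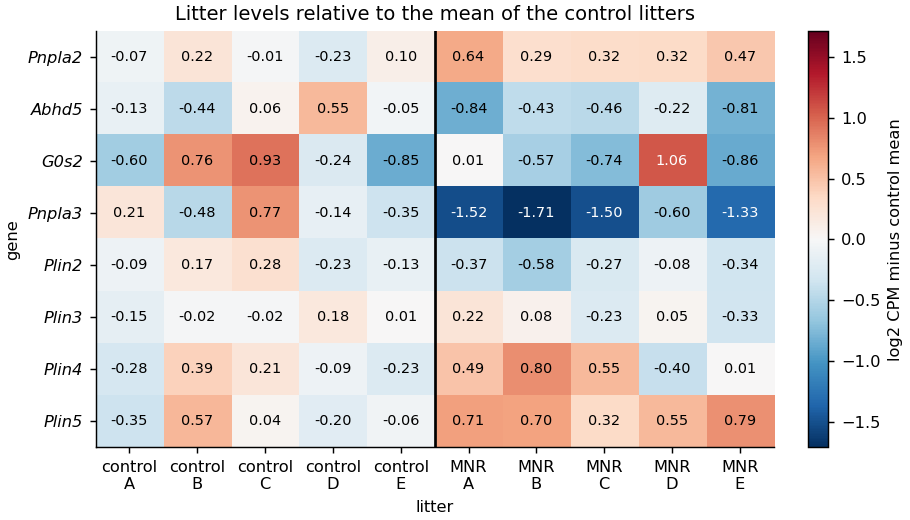
Litter level of each tested gene as log2 CPM minus the mean of the control litters (colour and printed value), with litters in columns and genes in rows. Pnpla3 ranges from -0.60 to -1.71 in MNR litters. Control litter B lies on the same side of 0 as the MNR change for Pnpla2, Abhd5, Pnpla3, Plin4 and Plin5, and by -0.02 only for Plin3.

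Plin2 encodes the perilipin that coats droplets of most cells and is the main one of hepatocytes. It lies at chr4:86294290-86315964 (mm9, minus strand), with 8 annotated transcripts. Its promoter is shown because it was the only one of 11 windows, covering all 9 genes, that held a motif searched. Capitals mark an E-box, CACGTG, that begins 4 bases before the start site (chr4:86670010-86670309, minus strand, GRCm38.p6, RefSeq). The match is a description of the letters, and 7.15% of all windows hold one.
Plin2: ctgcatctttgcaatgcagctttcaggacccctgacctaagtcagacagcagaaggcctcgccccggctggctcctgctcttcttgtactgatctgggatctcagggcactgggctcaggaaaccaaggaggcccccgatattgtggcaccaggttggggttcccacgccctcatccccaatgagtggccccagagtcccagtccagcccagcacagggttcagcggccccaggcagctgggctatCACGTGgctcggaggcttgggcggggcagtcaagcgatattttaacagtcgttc
Its litters A to E had 126.3, 151.6, 162.5, 114.1 and 123.0 CPM in control and 103.7, 89.8, 111.7, 126.9 and 106.1 CPM in MNR. MNR litter D reached into the control range and the other MNR litters lay below it. Single fetuses spanned 103.8 to 166.5 CPM (median 131.9) in control and 88.7 to 136.4 CPM (median 108.1) in MNR. The change of -0.33 (SE 0.11) between 135.5 ± 20.6 and 107.6 ± 13.5 CPM had an edgeR adjusted p of 0.137.

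Plin3 encodes a perilipin that moves between cytosol and young droplets. Its litters spanned 50.6 to 63.6 CPM in control and 44.7 to 65.3 CPM in MNR, at chr17:56418385-56429934 (mm9, minus strand). With a change of -0.03 (SE 0.10) and an edgeR adjusted p of 0.887 it moved least of the 8 genes, and the sign turned without control litter D, MNR litter C or MNR litter E. Of its windows of 50 bases 1.37% also occur in coding transcripts of other genes, against 0.131% for Pnpla3 and 0 for the other 7 genes. Plin4, a perilipin of fat and muscle, lies at chr17:56240014-56249225 (mm9, minus strand), with litters at 6.58 to 10.5 CPM in control and 6.08 to 14.0 CPM in MNR. Its groups overlapped, with a change of 0.33 (SE 0.21) and an edgeR adjusted p of 0.42, and with each litter left out the change ran from 0.19 (without MNR litter B) to 0.47 (without MNR litter D). The exons of Plin4 overlap those of Hdgfrp2 on the opposite strand, and the sources used here do not say whether the counting used strand. Hdgfrp2 had 30.5 ± 1.60 CPM in control litters against 25.5 ± 1.10 CPM in MNR litters (change -0.26, edgeR adjusted p = 0.0532), opposite in direction to Plin4. Plin4 and Plin5 lie close together on chromosome 17 and Plin3 farther along it, with changes of 0.33, 0.59 and -0.03.

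Cidec encodes a protein that drives the fusion of droplets in fat cells and in fatty liver. It lies at chr6:113374628-113385754 (mm9, minus strand) and was near the limit of detection. Control fetuses had 1 to 13 counts, 35 in all, and MNR fetuses 1 to 14 counts, 47 in all, which is 0.0343 to 0.552 CPM and 0.0598 to 0.688 CPM. It did not pass the filter on low counts. With no filter its change was 0.44 (SE 0.459), with an edgeR adjusted p of 0.669.

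Genes were compared as CPM per kilobase, with the length of a gene averaged over its transcripts by their counts. On that scale Plin2 was the highest of the 9 in both groups. It stood at 111.5 ± 16.9 CPM per kilobase in control, followed by G0s2 at 53.3 ± 29.4, Abhd5 at 30.9 ± 8.17, Plin5 at 27.5 ± 7.30 and Plin3 at 26.1 ± 2.17. Abhd5, Plin5 and Plin3 did not differ beyond their spread over litters, nor did G0s2 and Abhd5. Pnpla2 at 15.2 ± 1.78, Pnpla3 at 7.95 ± 3.02, Plin4 at 1.42 ± 0.294 and Cidec at 0.113 ± 0.0649 CPM per kilobase each lay below the gene before by more than their SD. In MNR, Plin5 stood at 41.3 ± 4.97 CPM per kilobase, above Plin3 at 25.5 ± 3.97, Abhd5 at 20.8 ± 3.78 and Pnpla2 at 20.2 ± 2.17. Plin2 was highest at 88.6 ± 11.1, and G0s2 at 46.3 ± 30.2, raised by MNR litter D, did not differ from Plin5 beyond its spread. Pnpla3 stood at 3.11 ± 1.07 CPM per kilobase. Levels of Plin2, Pnpla2 and Abhd5 depend on the length used. With the longest transcript Plin2 stood at 71.8 ± 10.9 CPM per kilobase in control and 57.0 ± 7.12 in MNR. It then did not differ from G0s2 beyond the spread of G0s2 in either group. With that length Pnpla2 stood at 10.9 ± 1.27 in control, above Pnpla3 by less than the SD of Pnpla3. Abhd5 then stood at 23.6 ± 6.26 in control, below Plin5 and Plin3 but within its spread, and at 15.9 ± 2.89 in MNR.

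Shares of counts between the transcripts of a gene were not read as isoform use. The 2 transcripts of Plin5, both of 1986 bases, took 50.1% and 49.9% of its counts in control, an even split. Plin2-001 took 44.1% ± 0.90 of the counts of Plin2 in control and 45.0% ± 1.85 in MNR (SD, 10 fetuses each), a difference below the spread between fetuses.

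Ratios of counts within a litter do not depend on the scaling between libraries, and 5 pairs of genes were formed with their levels known, so they are described without a test. Counts of Plin5 over those of Plin2 were 0.331 to 0.521 in control litters and 0.598 to 0.961 in MNR litters, with no overlap. Pnpla2 over Pnpla3 was 0.472 to 1.32 in control and 1.55 to 3.65 in MNR, 2 genes whose litters were each already apart. The activator Abhd5 over its lipase Pnpla2 was 1.62 to 4.40 in control and 0.915 to 1.75 in MNR, where the groups overlapped. Abhd5 over Plin5 also overlapped, at 0.676 to 2.30 in control and 0.451 to 0.797 in MNR. The ratio of Pnpla2 to its inhibitor G0s2 spanned 0.372 to 1.39 in control and 0.43 to 1.80 in MNR, with wide overlap.

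After centring on the group mean, Pnpla2 and Abhd5 varied in opposite directions over the 10 litters. Pearson's r was -0.87 (permutation within groups, 100000 resamples, two-sided p = 0.0054, adjusted over 28 pairs of genes p = 0.151), and Spearman's rho was -0.89 (permutation p = 0.00473, adjusted p = 0.132). Without the 2 litters farthest from the median of Pnpla2, MNR A and control B, r was -0.80. Plin2 and G0s2 had r = 0.77 (permutation p = 0.0266, adjusted p = 0.372) and rho = 0.59 (permutation p = 0.106, adjusted p = 0.712), and without control litter C and MNR litter D r was 0.49. No pair passed the adjustment over 28 pairs.

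The genes whose levels were most like those of a member were sought over 20 fetuses and 10120 genes of at least 5 CPM, after centring on the group mean, as a description. For Pnpla3 these were Fdft1, squalene synthase of the sterol pathway (r = 0.876), Mid1ip1, a regulator of acetyl-CoA carboxylase (r = 0.84), and Srebf1, the transcription factor gene of lipid synthesis (r = 0.819). Srebf1 fell in MNR livers too, by 0.71 (edgeR adjusted p = 0.0436), while Fdft1 and Mid1ip1 had changes of -0.38 and -0.59 (adjusted p = 0.147 and 0.126). For Plin5 they were Shroom1 (r = 0.903), Skil (r = 0.897) and Gpt, alanine aminotransferase (r = 0.878). Gpt rose in MNR livers, by 0.92 (edgeR adjusted p = 0.0437), while Shroom1 and Skil had changes of 0.62 and 0.13 (adjusted p = 0.059 and 0.557). For Plin2 the most like genes were Pvrl2 (r = 0.929), Ppp1r3c, a glycogen-targeting subunit of a phosphatase (r = 0.904), and Hfe2 (r = 0.892). Pnpla2 was most like Rbpms, Tab2 and Clpx (r = 0.882, 0.875 and 0.862), and Abhd5 most like Kdelc2, Gipc2 and Cyb5r3 (r = 0.87, 0.862 and 0.848). G0s2 was most like Kank2, Lnx2 and Pgpep1 (r = 0.857, 0.846 and 0.838). Plin3 was most like Farp1, Shmt2 and Morc4 (r = 0.847, 0.828 and 0.824), and Plin4 most like Il17ra, Rprd1a and Thap2 (r = 0.786, 0.784 and 0.756). The fetuses share litters and library depth, and no p is given.

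The other genes of the droplet were grouped in lists by function. Of 23 further genes of the droplet coat and of droplet formation, 20 were tested and 0 passed in edgeR, where 4 higher and 4 lower had an unadjusted p under 0.05 (9.95% and 9.69% of all tested genes). DESeq2 called 6 and limma-voom with litter as a random effect called 6, against 6.62% and 6.74% of all genes, and the median change was -0.01. The 3 of smallest p were sterol synthesis enzymes that are also found on droplets: Nsdhl, Lss and Hsd17b7. Their changes were -0.71, -0.61 and -0.52 (edgeR adjusted p = 0.0569, 0.0685 and 0.0758). Chosen after their values were seen, Hilpda, which encodes another inhibitor of adipose triglyceride lipase, had 11.4 ± 3.62 CPM in control litters against 20.9 ± 6.63 CPM in MNR litters (change 0.88, SE 0.25, edgeR adjusted p = 0.0926), and Fitm2, of droplet formation, had a change of 0.47 (edgeR adjusted p = 0.081).

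Of 22 other lipase genes 21 were tested and 0 passed in edgeR. An unadjusted p under 0.05 was reached by 3 higher and 1 lower, as by 9.95% and 9.69% of all tested genes. DESeq2 called 1 and limma-voom 2, against 6.62% and 6.74% of all genes, and the median change was 0.02. Pnpla7, a lysophospholipase of the same family as Pnpla2, had a change of 0.31, the carboxylesterase Ces2e one of 0.42 and the cholesterol ester hydrolase Nceh1 one of 0.32 (edgeR adjusted p = 0.102, 0.13 and 0.132). Hormone-sensitive lipase (Lipe) and monoglyceride lipase (Mgll), which follow adipose triglyceride lipase in fat cells and were added after their values were seen, had changes of -0.02 (SE 0.12) and 0.05 (SE 0.11). Of 20 genes of triglyceride and sterol ester synthesis 19 were tested, 0 passed in edgeR, and 3 higher and 1 lower had an unadjusted p under 0.05. DESeq2 and limma-voom each called 1, and the median change was 0.10. The shares over all genes are those given for the lipases. Lpin1, a phosphatidate phosphatase, had 355.8 ± 75.1 CPM in control litters against 593.4 ± 181.2 CPM in MNR litters (change 0.74, SE 0.22, edgeR adjusted p = 0.106). Plpp3 and Agpat2 had changes of 0.19 and -0.30 (adjusted p = 0.207 and 0.208).

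The medians of 2 lists of transcription factors and their targets had opposite signs. Of 16 genes of SREBP-1, ChREBP and their targets (factors known to drive Pnpla3 as well), 4 fell and 0 rose in edgeR. Over all tested genes 0.25% fell and 0.415% rose. In the list 11 genes were lower and 1 higher at an unadjusted edgeR p under 0.05, and the median change was -0.60. Scd1, stearoyl-CoA desaturase, Fasn, fatty acid synthase, and Acss2, acetyl-CoA synthetase, fell, with changes of -1.52, -1.17 and -1.06 (edgeR adjusted p = 0.0262, 0.0374 and 0.0416). Srebf1 was the fourth. Without control litter A, C, D or E or MNR litter A, B or E the list had 0 calls in edgeR. It had 1 without MNR litter C, and 0 with fetus 1 only or with the hepatocyte covariate. Calls over all genes, 0.666% in the analysis reported, were also fewer in each of these fits. They made up 0.17% when MNR litter C was dropped and 0.0113% when either control litter D or MNR litter A was. In the other fits named, 0 of all genes passed. The lower direction of the list was known from earlier results of these data and is no independent support for that of Pnpla3. The PPAR alpha list held 20 genes, the receptor genes Ppara and Pparg and targets of PPAR alpha. Of these 0 passed in edgeR, with 8 higher and 1 lower at an unadjusted p under 0.05 and a median change of 0.15. Ppara and Pparg themselves were among the 8 higher (edgeR p = 0.00846 and 0.00733). DESeq2 and limma-voom each called 6, against 6.62% and 6.74% of all genes. Angptl4, an inhibitor of lipoprotein lipase, Pdk4, a kinase that restrains glucose oxidation, and Cpt1a, the gate of fatty acids into mitochondria, had changes of 0.77, 0.76 and 0.42 (edgeR adjusted p = 0.0665, 0.0908 and 0.0987). Over all tested genes 9.95% were higher and 9.69% lower at that unadjusted level.

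**Figure D4:**
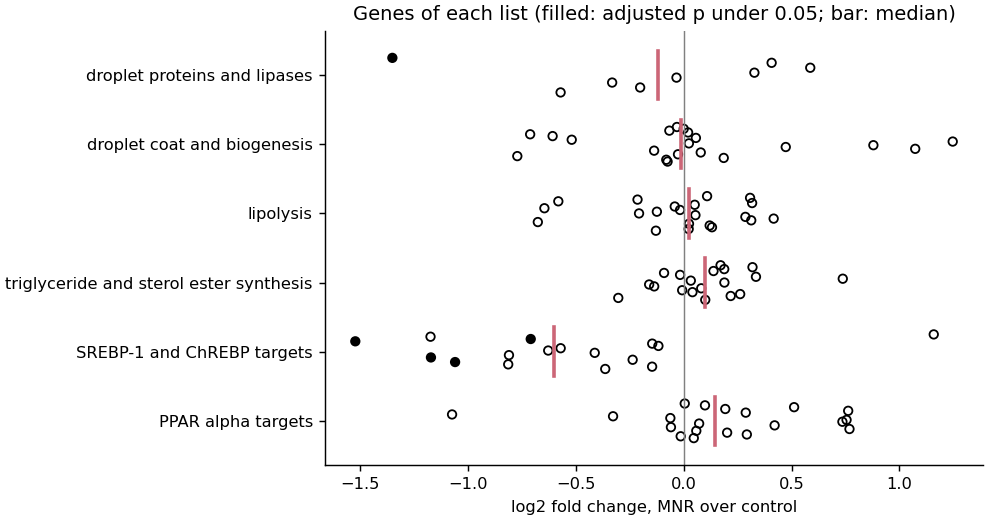
Log2 fold change of MNR over control (x axis) of every tested gene of the 9 droplet genes and of 5 lists (rows); points are genes, filled where edgeR's adjusted p is under 0.05, and bars are medians. The only filled points are Pnpla3 and 4 genes of the SREBP-1 and ChREBP list, all below 0.

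Hepatic stellate cells also hold lipid droplets, and all 8 of their markers had a negative change, with a median of -0.28. Of these 0 passed in edgeR and 4 had an unadjusted p under 0.05, all lower, as had 9.69% of all tested genes. Their summed level was 397 to 627 CPM in control fetuses and 354 to 570 CPM in MNR fetuses, and Lrat, the retinol esterifying enzyme that defines them, stood at 19.0 ± 4.72 and 13.1 ± 2.88 CPM. All 6 markers of neutrophil precursors had a positive change (5 at an unadjusted p under 0.05, as had 9.95% of all tested genes, and 0 past the threshold), with sums of 1059 to 1719 CPM in control and 1265 to 2388 CPM in MNR. All 4 markers of megakaryocytes also had a positive change, with a median of 0.22. An unadjusted edgeR p under 0.05 was reached by 3 of them, as by 9.95% of all tested genes, and 0 were past the threshold. Their sums were 159 to 246 CPM in control and 180 to 298 CPM in MNR. Of 10 erythroid markers 9 had a negative change, with a median of -0.09 against -0.00271 over all tested genes. Erythroid sums were 17650 to 36290 CPM in control and 20370 to 32680 CPM in MNR. With the erythroid level as a covariate Pnpla3 and Pnpla2 passed (edgeR adjusted p = 0.0461 and 0.0422), as did 0.956% of all genes. The part of stellate cells, neutrophil precursors and megakaryocytes in the values above was not tested.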

How the data were processed

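Whole-number counts per transcript, deposited by the authors in 1 table per fetus without normalisation, were used. The submitters' processing notes name build mm9 and the tools Bowtie2, FastQC, edgeR and DESeq2. No source used here gives their versions, the counting tool, its use of strand or its handling of reads with several matches. A deposited table of genes was not used, since it equals the summed counts for only 8.52% to 9.66% of genes per fetus. For 99.7% of genes it equals the summed ranks of the transcript counts when these are sorted as text, so it does not hold counts.

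Counts were summed to genes with the annotation of NCBIM37 (GENCODE release M1). Transcripts matching no gene held 0.0788% to 0.154% of counts and were left out. Littermates were summed, genes were filtered with filterByExpr (minimum count 10), and litters were compared with edgeR 4.0.16 (R 4.3.3, TMM, quasi-likelihood, two-sided). Correlations used log2 CPM with a prior count of 2. Alternatives used DESeq2 1.42.0 and limma 3.58.1, 1 fetus per litter, other scalings, filters and covariates, a block on the litter letter, and left-out litters. The procedure was tested on simulated data.

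The 9 genes and the lists were chosen with earlier results of these data known. All 9 are named; of each list the 3 genes of smallest p with a mean of at least 1 CPM, and for each member of at least 5 CPM the 3 most like genes, are named. Promoter windows are those of RefSeq.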

Additional observations from a re-analysis of the deposited data

Results flagged for a closer look

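In 6 of 36 groups of values, 1 sample lay apart from the rest of its group by Dixon's 95% criterion. Chance meets it in about 1 in 20 groups of independent, normally distributed values. The values here were CPM without logarithm, littermates are not independent, and the litter values repeat the fetuses. The 6 groups can therefore not be set against that rate. Pnpla2 stood at 54.06 CPM in fetus 2 of MNR litter A, and the next MNR fetus at 41.7 CPM. Pnpla3 stood at 26.96 CPM in fetus 1 of MNR litter D, with its littermate next at 16.2 CPM, and MNR litter D as a whole at 23.03 CPM, with the next MNR litter at 13.9 CPM. Abhd5 stood at 128.0 CPM in fetus 1 of control litter D, with the next control fetus at 80.1 CPM. Cidec stood at 0.552 CPM in fetus 2 of control litter C and at 0.6881 CPM in fetus 2 of MNR litter A, on 13 and 14 counts.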

How the results depend on the processing

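All 8 tested genes kept their direction in every alternative, except Plin3, whose change was 0.054 with the hepatocyte marker level as a covariate and 0.013, 0.013 and 0.032 without control litter D, MNR litter C and MNR litter E (range with a litter left out -0.1052 to 0.032), and G0s2, at 0.068 without control litter C (range -0.6786 to 0.068). Pnpla3 no longer passed with only fetus 1 of each litter (-1.243) or with the hepatocyte marker level as a covariate (-1.429), and with each litter left out in turn its change ran from -1.586 to -1.111. The cause of these shifts was not tested.

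The number of the 8 genes past the threshold, 1 in the analysis reported, was 5 with the fetuses as separate libraries, 4 in limma-voom with a random litter effect, 4 in DESeq2, 0 with only fetus 1 and 4 with only fetus 2 of each litter, 2 with the erythroid and 0 with the hepatocyte marker level, 3 at a threshold of 0.1, and 0 to 4 with each litter left out. It reached 4 with control litter B left out and 2 with MNR litter D left out, and was 0 with any other litter left out. Of all genes 4.75% passed with control litter B left out and 2.89% with MNR litter D left out. Counts over all genes in the other fits follow.

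Among all genes 117 (0.666%) passed in the analysis reported. The count was 2301 (14.3%) with the fetuses as separate libraries, 1088 (6.74%) in limma-voom and 1163 (6.62%) in DESeq2. It was 0 with fetus 1 only, 499 (3.08%) with fetus 2 only, 168 (0.956%) with the erythroid and 0 with the hepatocyte marker level. With no filter 145 of 26830 genes passed, and with upper-quartile scaling 178 (38.2% of them higher in MNR, against 62.4%). Without the 3 fetuses with pancreatic transcripts (an alternative chosen after seeing the data) 215 (1.22%) passed. At a threshold of 0.1 the count was 875, and with each litter left out 0 to 843 (4.75%).

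Counts of the lists past the threshold changed as follows, in fits whose calls over all genes are given above. The coat list went from 0 to 7 with separate fetuses, 6 in limma-voom, 6 in DESeq2, 5 with fetus 2 only, 1 with upper-quartile scaling, 1 with no filter, 2 without the 3 fetuses, 5 at the threshold of 0.1 and 0 to 5 with a litter left out. The lipase list went from 0 to 3 with separate fetuses, 2 in limma-voom, 1 in DESeq2 and 0 to 1 with a litter left out, and the synthesis list from 0 to 3, 1, 1 and 0 to 2. The SREBP-1 and ChREBP list went from 4 to 10 with separate fetuses, 8 in limma-voom, 7 in DESeq2, 0 with fetus 1 only, 0 with the hepatocyte covariate and 0 to 6 with a litter left out. The PPAR alpha list went from 0 to 8 with separate fetuses, 6 in limma-voom, 6 in DESeq2, 3 with fetus 2 only, 3 at the threshold of 0.1 and 0 to 2 with a litter left out.

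Litter letters do not pair the groups, since they name different dams, and the deviations of same-letter litters correlated at -0.00928 to 0.184, best with their own letter for C and D only. With the replicate block on the letter 232 genes passed (1.32% of those tested), 2 of the coat list and 1 of the PPAR alpha list, and the change of Pnpla3 was -1.333 (edgeR adjusted p = 0.0426), with 1 of the 8 genes past the threshold as before. Depth limits the reading of Cidec, at 1 to 14 counts per fetus.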
